A study of Sus scrofa with 12 samples.

Results

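Uterine miRNAs were compared between gilts that had nursed for 48 h and gilts taken at birth, in 8 of the 12 small RNA libraries of the series. The PND2N gilts (postnatal day 2, nursed) suckled freely and were collected at 50 h of age, n = 4. The PND0 gilts (postnatal day 0) were not nursed and were collected no later than 1 h after birth, n = 4. All were young female pigs of crossbred Landrace, Yorkshire, Duroc and Hampshire stock, and 4 further gilts fed a milk replacer to the same age (PND2R) entered 1 alternative fit and are given as values beside a few results. PND2N and PND0 gilts differ in age and in feeding at once, so the effects of 50 h of life and of suckling cannot be told apart in this comparison. Each library came from 1 gilt, and the uterus was sequenced as a whole organ trimmed of connective tissue.

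miRNAs are short RNAs cut from hairpin precursors. Either arm of the hairpin, called 5p and 3p, can be loaded into an Argonaute protein, where it guides repression of messenger RNAs that pair with its seed. The pig uterus is immature at birth: its glands form in the weeks that follow, and factors in first milk are known to act on this growth, which is called lactocrine signalling. The profile of such a tissue mixes miRNAs of smooth muscle and mesenchyme, which make up most of the wall, with those of epithelium, vessels and blood. How much each cell type gave was not measured here.

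The table held 420 rows, 1 for each precursor of a mature miRNA, under 362 names. Of these, 264 rows (233 names) lay above the table's floor of 1 in at least 4 of the 8 libraries and were tested, 179 of them above it in all 8. The other 156 rows were not tested, and 138 of them had no value above the floor in these 8 libraries. Levels are given in rpm, the value above the floor as parts per 1000000 of the library's summed signal. The spacing of the values implied 11807837, 37462, 8400976 and 242550 reads in PND2N replicates 1 to 4, against 464476, 3561681, 12159233 and 375882 reads in PND0 replicates 1 to 4. In PND2N replicate 2 a single read was therefore worth 26.7 rpm, and a count of 0 allows a level of up to 80.1 rpm (3 reads). The same limit was 12.4 rpm in PND2N replicate 4 and at most 7.98 rpm in the PND0 libraries. This library also stood apart in its profile. Pearson correlations of log2 levels across the 264 rows were 0.953 to 0.967 in the 7 pairs that hold PND2N replicate 2 and 0.982 to 0.995 in the other pairs of the 8 libraries. miRNA rows are not independent replicates, so these are descriptions. Across groups without that library the correlation was 0.983 to 0.995 (12 pairs), and within PND0 it was 0.982 to 0.994 (6 pairs).

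No miRNA passed the test between nursed 50 h and newborn uterus. Of the 264 rows, 0 had a limma adjusted p under 0.05 (0%), and the smallest adjusted p was 0.212. At an unadjusted p under 0.05 there were 12 rows (4.55% of those tested), 1 with a higher value in PND2N (0.379%) and 11 with a lower one (4.17%). Under quantile normalization the same count was 13, with 7 higher and 6 lower, and with libraries centred on their median it was 14, with 8 higher and 6 lower. On those scales lower values were not in surplus. Across the 264 rows the log2 fold change had a median of -0.20, with 63 rows above 0 and 201 below. Without PND2N replicate 2 this median was -0.10, and the values that follow are relative to such a shifted centre.

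The groups did not overlap in 10 rows (3.79%). In 2 of them every PND2N library lay above every PND0 library (0.758%), namely miR-1 and miR-148b-5p. In 8 every PND2N library lay below (3.03%): let-7d-5p, miR-339, miR-339-5p, miR-126-5p, miR-184, miR-206, miR-139-3p and miR-183. Changes were small, with 5 rows past 1 on the log2 scale, a range of -1.43 to 0.72 and a median standard error of 0.30. Those 5 rows were miR-206, miR-210, miR-708-5p and both rows of miR-135. For miR-135 and miR-708-5p, PND2N replicate 2 had 0 reads where 9.30 (miR-135 row 1) and 5.58 (miR-708-5p) would stand at the PND0 mean. Row numbers mark precursors that share a name and can share reads, so the split between such rows is uncertain.

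**Figure D1:**
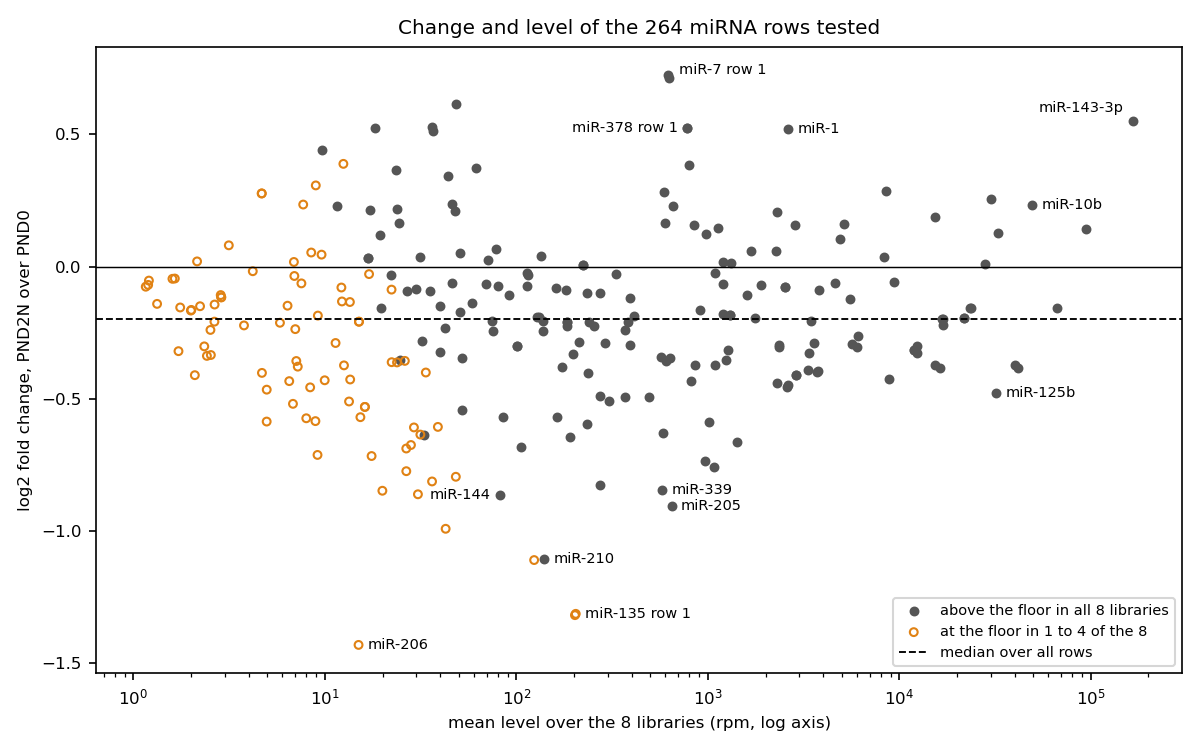
Each point is 1 of the 264 miRNA rows, with its mean level over the 8 libraries in rpm on a log axis (x) and its log2 fold change of PND2N over PND0 (y). Filled points were above the floor in all 8 libraries and open points in 4 to 7, and the dashed line is the median of -0.20. miR-206 lies lowest at -1.43 and the most abundant miRNA, miR-143-3p, lies at 0.55.

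miR-206 had the smallest p of all rows. It is a miRNA of skeletal muscle, made with miR-133b from one locus. Its level was 3.30, 0, 11.8 and 0 rpm in PND2N replicates 1 to 4, against 34.4, 31.4, 25.6 and 13.3 rpm in PND0 replicates 1 to 4. Every PND2N library lay below every PND0 library, although 11.8 and 13.3 rpm stand close together. The values rest on 39, 0, 99 and 0 reads in PND2N and on 16, 112, 311 and 5 reads in PND0. At the PND0 mean of 26.2 rpm, 0.981 reads would stand in PND2N replicate 2 and 6.35 in PND2N replicate 4, so the first of these zeros carries little information. The log2 fold change on log2(rpm + 10) was -1.43 ± 0.32 (SE; adjusted p = 0.212 by limma), and a pseudocount of 10 rpm understates the change of a miRNA this scarce. With the 2 libraries over 1000000 reads in each group it was -1.17, and without PND2N replicate 2 it was -1.30. With limma's library weights it was -1.34 at an adjusted p of 0.0251, the 1 call among the fits run, over which its adjusted p ran up to 0.949 (deposited values). In the replacer-fed gilts miR-206 stood at 13.4, 0, 0 and 8.73 rpm. PND2R replicates 1 to 3 held only 74799, 69816 and 47992 reads, and 13.4 rpm in replicate 1 is a single read. A count of 0 allowed up to 43.0 rpm in replicate 2 and 62.5 rpm in replicate 3. Both limits lie above the PND0 mean, so a low level there is not shown.

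The other miRNAs with the 12 smallest p values each had an adjusted p of 0.600 by limma. miR-339 stood at 515, 240, 401 and 515 rpm in PND2N, against 702, 693, 590 and 974 rpm in PND0. miR-339-5p, an overlapping row, stood at 990, 427, 786 and 775 rpm in PND2N, against 1076, 1149, 1144 and 1423 rpm in PND0. Both rows were lower in every PND2N library, and both are lowest in PND2N replicate 2, where miR-339 had 9 reads. The log2 fold changes were -0.85 ± 0.29 for miR-339 and -0.73 ± 0.27 for miR-339-5p, and -0.48 and -0.38 in the same order in the 4 libraries over 1000000 reads. let-7d-5p, of the family that accumulates as animal tissues mature, stood at 1249, 667, 1265 and 1237 rpm in PND2N, against 1632, 1357, 1855 and 2035 rpm in PND0 (log2 fold change -0.66 ± 0.25). The groups did not overlap, and 3 of the PND2N libraries lay close to each other while replicate 2 lay far below. Its log2 fold change was -0.44 without that library and -0.33 in the 4 libraries over 1000000 reads.

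miR-210, the miRNA induced by hypoxia through HIF1A, stood at 116, 26.7, 114 and 94.8 rpm in PND2N, against 187, 238, 246 and 93.1 rpm in PND0. PND0 replicate 4 lay within the PND2N range, and PND2N replicate 2 held 1 read, so the groups overlapped. With the reads of each group pooled, the level was 115 rpm in PND2N and 239 rpm in PND0. Pooling weights each gilt by its reads, so these values come mostly from PND2N replicates 1 and 3 and PND0 replicates 2 and 3. PND0 replicate 4, at 93.1 rpm, counts for little in them. The log2 fold change was -1.11 ± 0.46 with all 8 libraries, -0.69 without PND2N replicate 2 and -1.01 in the 4 libraries over 1000000 reads. The replacer-fed gilts, of the same age as PND2N, stood at 134, 129, 146 and 175 rpm. In PND2R replicates 1 to 3 a single read was worth 13.4, 14.3 and 20.8 rpm, so their values rest on few reads.

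miR-205, found in basal and squamous epithelium, stood at 865, 214, 475 and 371 rpm in PND2N, against 792, 910, 853 and 692 rpm in PND0 (log2 fold change -0.91 ± 0.36). PND2N replicate 1 lay within the PND0 range and the other 3 lay below it. The change of miR-205 was -0.59 without PND2N replicate 2 and -0.45 in the 4 libraries over 1000000 reads. miR-184, abundant in the cornea of mice, stood at 27.1, 26.7, 16.3 and 24.7 rpm in PND2N, against 40.9, 47.7, 48.8 and 31.9 rpm in PND0 (-0.64 ± 0.28). Its groups did not overlap, with 1 read in PND2N replicate 2.

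miR-139-3p and miR-18b were near the floor. miR-139-3p, from an intron of the phosphodiesterase gene PDE2A, had 10.16, 0, 9.999 and 0 rpm in PND2N, against 15.1, 11.2, 13.4 and 13.3 rpm in PND0 (log2 fold change -0.71 ± 0.29). miR-18b, of an X-linked relative of the miR-17 cluster, had 3.47, 0, 3.69 and 0 rpm in PND2N, against 8.61, 5.33, 2.63 and 16.0 rpm in PND0 (-0.59 ± 0.25). For both, the zeros are in the libraries whose limits for a count of 0 are 80.1 and 12.4 rpm. In the 4 libraries over 1000000 reads the change was -0.15 for miR-139-3p and -0.04 for miR-18b.

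miR-374a-5p and miR-125b were well above the floor. miR-374a-5p stood at 985, 454, 1154 and 631 rpm in PND2N, against 1419, 2057, 968 and 966 rpm in PND0 (log2 fold change -0.76 ± 0.34). miR-125b, the mammalian counterpart of the worm timing gene lin-4, stood at 28268, 22263, 25590 and 29837 rpm in PND2N, against 30443, 29446, 36818 and 54581 rpm in PND0 (-0.48 ± 0.22). For miR-374a-5p PND2N replicates 1 and 3 lay above PND0 replicates 3 and 4, and for miR-125b PND2N replicate 4 lay just above PND0 replicate 2. In the 4 libraries over 1000000 reads the change was -0.40 for miR-374a-5p and -0.29 for miR-125b, and without PND0 replicate 4 that of miR-125b was -0.28.

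**Figure D2:**
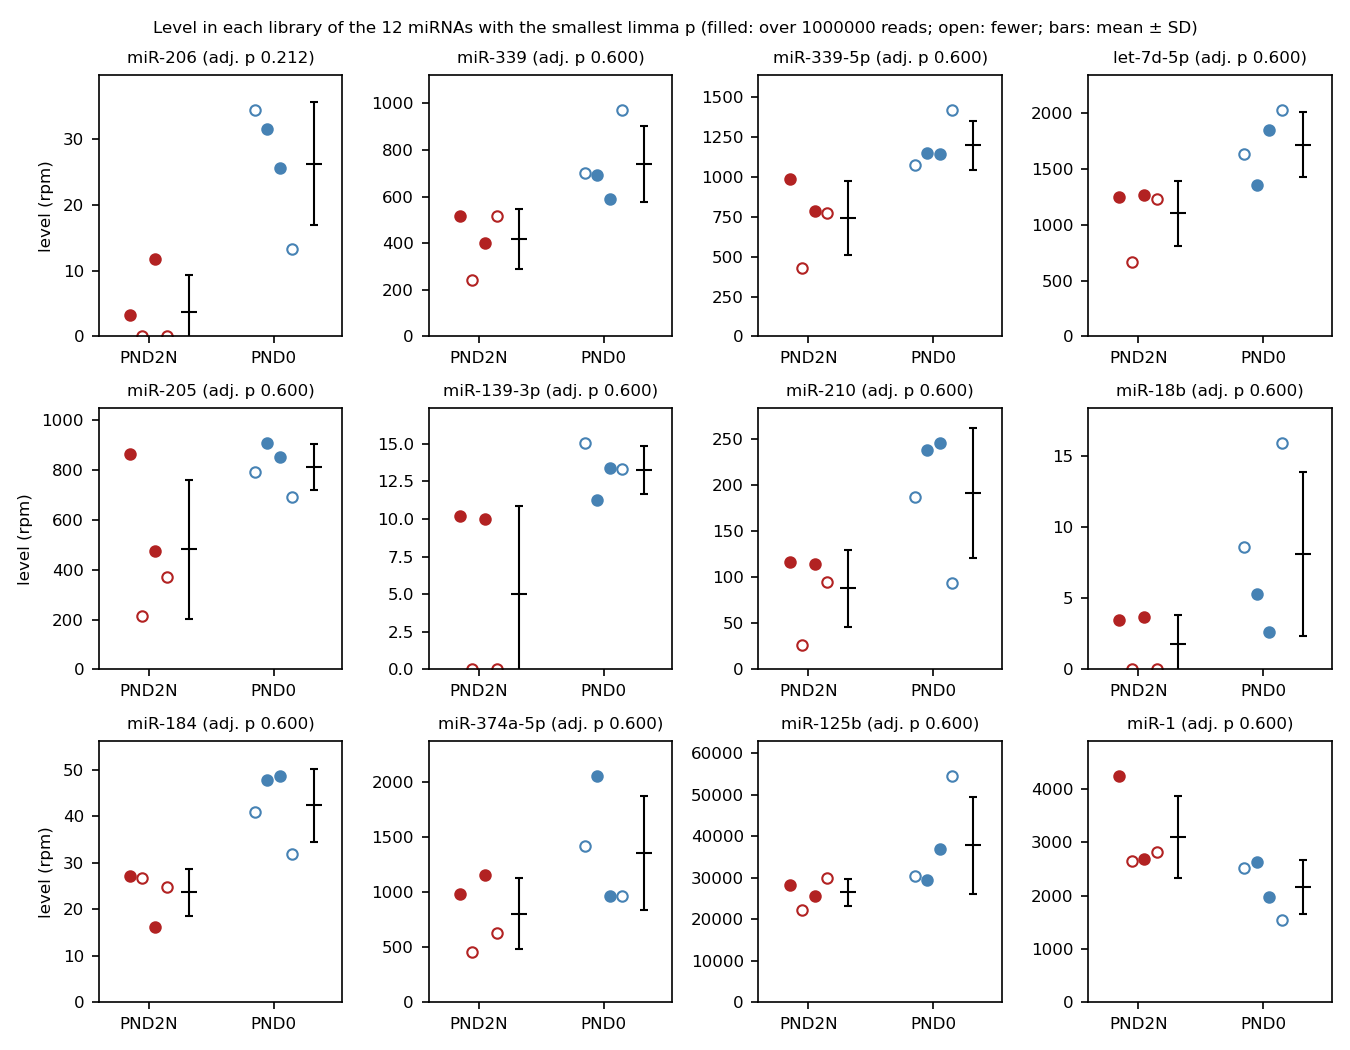
Level in rpm (y) in each PND2N and PND0 library for the 12 miRNAs of smallest limma p, 1 panel each; filled circles are libraries over 1000000 reads, open circles are shallower ones, and bars give mean ± SD (n = 4), cut at 0 for miR-206, miR-139-3p and miR-18b. In 11 panels the PND2N mean is the lower one, and in that of miR-1 all 4 PND2N libraries lie above the PND0 libraries.

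miR-1 was the 1 miRNA with a higher value in PND2N among the 12. It is made in striated muscle and also in smooth muscle. It stood at 4253, 2643, 2696 and 2824 rpm in PND2N, against 2521, 2632, 1974 and 1540 rpm in PND0. All 16 of 16 pairs of a PND2N and a PND0 library had the higher level in PND2N, though 2643 and 2632 rpm are nearly equal. These pairs come from 8 gilts and are not independent. The log2 fold change was 0.52 ± 0.24 (adjusted p = 0.600, limma). With 1 library left out it ranged from 0.36 (without PND2N replicate 1) to 0.62 (without PND0 replicate 2), with 0.37 without PND0 replicate 4. The replacer-fed gilts stood at 3917, 2234, 2917 and 3491 rpm.

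Further miRNAs had higher values in PND2N and were picked after their values were seen. miR-7 row 1, a miRNA of neurons and endocrine cells, stood at 790, 480, 1304 and 544 rpm in PND2N, against 474, 563, 675 and 200 rpm in PND0 (log2 fold change 0.71 ± 0.41). miR-378 row 1, encoded in an intron of the metabolic coactivator gene PPARGC1B, stood at 848, 1255, 747 and 829 rpm in PND2N, against 734, 752, 504 and 543 rpm in PND0 (0.52 ± 0.25). miR-7 overlapped widely between the groups, and its change was 0.35 without PND0 replicate 4 and 0.43 without PND2N replicate 3. miR-378 overlapped by 1 library. Both had an adjusted p of 0.600 by limma.

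Among the 10 leading rows were a smooth muscle miRNA and both rows of a mesenchymal one. miR-143-3p, which with miR-145 favours the contractile state of smooth muscle, was the most abundant row, at 16.5% ± 5.91 of the signal over the 8 libraries (SD). It took 14.6%, 28.6%, 15.2% and 20.4% in PND2N, against 16.9%, 15.1%, 9.06% and 13.1% in PND0 (log2 fold change 0.55 ± 0.27, adjusted p = 0.600 by limma). The highest value was in the shallowest library and the lowest in PND0 replicate 3, and the groups overlapped. The log2 fold change of miR-143-3p was 0.35 without PND2N replicate 2 and 0.34 without PND0 replicate 3. The next rows were miR-99a at 9.41% ± 2.52, miR-27b-3p at 6.68% ± 1.02, miR-10b at 4.94% ± 1.07 and miR-199a-3p row 1 at 4.18% ± 0.831 (SD, n = 8). They were followed by miR-199a-3p row 2 at 4.03% ± 0.795, miR-148a-3p at 3.29% ± 0.742, miR-125b at 3.22% ± 0.997, miR-21 at 3.00% ± 0.700 and let-7i at 2.80% ± 0.573. Their log2 fold changes were between -0.48 (miR-125b) and 0.55 (miR-143-3p), and those of miR-99a (0.14), miR-148a-3p (0.13) and let-7i (0.01) are smaller than their standard errors.

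The 10 most abundant rows of a library together took 60.7% ± 6.04 of its signal in PND2N and 55.9% ± 3.57 in PND0 (SD, n = 4 each). The difference of 4.83 percentage points did not pass the test (two-sided exact permutation p = 0.229, where 70 splits allow no p below 0.0286). The most abundant row took 19.7% ± 6.47 in PND2N and 13.5% ± 3.37 in PND0 (exact permutation p = 0.171). Without PND2N replicate 2 the differences were 2.30 percentage points for the 10 rows and 3.19 for the most abundant row, against 4.83 and 6.14 with all libraries. In the 4 libraries over 1000000 reads they were 2.67 and 2.78. A larger share for the leading rows leaves less for all others, since shares sum to a fixed total.

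Lists of miRNAs for the cell types and processes of this tissue gave 0 called rows in each of 20 lists, as did the table as a whole. Summed levels do not tell fewer cells of a type from less of a miRNA per cell. In smooth muscle, 3 of 4 rows lay above 0 and the median was 0.22, with a summed share of 16.4% to 29.1% in PND2N and 9.49% to 17.8% in PND0. Most of that share was miR-143-3p. The row below 0 was miR-145-3p, at 537 ± 161 rpm in PND2N and 733 ± 421 rpm in PND0. The guide strand miR-145-5p stood at 17488, 4084, 10234 and 6943 rpm in PND2N, against 7240, 9896, 8345 and 3839 rpm in PND0 (log2 fold change 0.29 ± 0.41), with wide overlap. This change was -0.06 without PND2N replicate 1 and 0.63 without PND2N replicate 2.

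The mesenchymal miR-199a, miR-199b and miR-214 rows gave 0 above and 7 below 0, with a median of -0.19, close to that of all rows. miR-199a-3p row 1 averaged 36394 ± 6565 rpm in PND2N and 47149 ± 6395 rpm in PND0. miR-214, made from the same transcript as miR-199a-2 in mammals, averaged 1195 ± 457 rpm in PND2N and 1195 ± 84.8 rpm in PND0. Without PND2N replicate 2 the median of the list was 0.04.

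Striated muscle miRNAs were split. Of 8 rows, 2 lay above 0 and 6 below, with a median of -0.16 that became 0.24 without PND2N replicate 2. Apart from miR-1 and miR-206, miR-133a-3p row 1 averaged 135 ± 88.9 rpm in PND2N and 127 ± 29.8 rpm in PND0. miR-499-5p, from an intron of a slow myosin gene, averaged 339 ± 52.2 rpm in PND2N and 401 ± 60.5 rpm in PND0. The summed share of the list was 0.299% to 0.515% in PND2N and 0.231% to 0.337% in PND0. Most of that share was miR-1, with a mean of 0.264% over the 8 libraries against 0.0370% for miR-499-5p.

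Epithelial miRNAs gave 0 rows above and 5 below 0 (median -0.38), with a summed share of 0.0320% to 0.107% in PND2N and 0.0881% to 0.115% in PND0. Most of that share was miR-205. miR-429, of the miR-200 family that holds the epithelial state, averaged 151 ± 46.7 rpm in PND2N and 196 ± 39.4 rpm in PND0 (log2 fold change -0.38 ± 0.31). The median of the list was -0.24 without PND2N replicate 2, and in the 4 libraries over 1000000 reads it was -0.07, with 2 rows above and 3 below 0. The neighbours miR-183, miR-182 and miR-96-5p had at most 16.0 rpm in any of the 8 libraries. The groups did not overlap in miR-183, at 1.78, 0, 2.14 and 0 rpm in PND2N, against 4.31, 3.09, 2.71 and 5.32 rpm in PND0, which is 2 reads in each of PND0 replicates 1 and 4. In PND2N replicates 2 and 4 the PND0 levels lie under the limits for a count of 0, so absence there is not shown. The other miR-200 family members were not analysed here.

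The endothelial pair from an intron of EGFL7 had values of similar size below 0. miR-126-3p, which promotes vessel growth, stood at 10676, 10304, 13435 and 9932 rpm in PND2N, against 14524, 13518, 14765 and 11671 rpm in PND0 (log2 fold change -0.30 ± 0.17). miR-126-5p stood at 493, 507, 536 and 466 rpm in PND2N, against 797, 646, 584 and 545 rpm in PND0 (-0.34 ± 0.22). miR-126-5p did not overlap between the groups, and miR-126-3p overlapped only through PND2N replicate 3 and PND0 replicate 4. Over the 5 rows of the list, which adds miR-221 and miR-222, 1 lay above and 4 below 0 (median -0.34).

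Red cell miRNAs had the lowest median of the lists with more than 1 row, at -0.82, and all 3 rows lay below 0. miR-451, which is cut by Argonaute 2 and not by Dicer, stood at 62.6, 187, 355 and 243 rpm in PND2N, against 293, 400, 424 and 231 rpm in PND0 (log2 fold change -0.82 ± 0.45). miR-144, from the same erythroid locus, stood at 18.8, 53.4, 90.6 and 74.2 rpm in PND2N, against 103, 117, 110 and 87.8 rpm in PND0 (-0.86 ± 0.40). Both were lowest in PND2N replicate 1, 1 of the 2 deepest libraries of the 8. miR-486 averaged 11.1 ± 7.50 rpm in PND2N and 19.5 ± 4.68 rpm in PND0. Without PND2N replicate 2 the list's median was -0.84, and in the 4 libraries over 1000000 reads it was -1.20. Without PND2N replicate 1 the change was smaller, at -0.49 for miR-144 and -0.36 for miR-451. The summed share ranged from 0.00949% to 0.0460% in PND2N and from 0.0335% to 0.0554% in PND0, and its part in the levels of other miRNAs was not tested.

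Leukocyte miRNAs gave 3 rows above and 4 below 0 (median -0.36, -0.10 without PND2N replicate 2). miR-155-5p, induced in activated leukocytes, averaged 234 ± 96.2 rpm in PND2N and 310 ± 43.0 rpm in PND0, and miR-142-5p, made in all blood lineages, averaged 31.5 ± 6.17 rpm in PND2N and 31.6 ± 12 rpm in PND0. Neural miRNAs gave 8 rows above and 6 below 0 (median 0.02, -0.02 without PND2N replicate 2), with miR-218-5p at 3232 ± 549 rpm in PND2N and 4238 ± 484 rpm in PND0. Both rows of miR-7 and of miR-124a lay above 0, and the miR-9 rows lay below. Rows that can share reads are thus counted separately in this list. Of liver and gut miRNAs 1 row lay above and 4 below 0 (median -0.05, 0.01 without PND2N replicate 2), and the liver miRNA miR-122 had at most 8.45 rpm in any of the 8 libraries.

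Of the families tied to developmental timing and growth, let-7 had 2 rows above and 9 below 0 (median -0.33), with let-7a row 1 at 14101 ± 1736 rpm in PND2N and 18541 ± 3396 rpm in PND0. In the miR-17 cluster and its paralogs, which drive proliferation, 1 row lay above and 14 below 0 (median -0.35), and miR-20a averaged 2303 ± 1309.9 rpm in PND2N and 2869 ± 1190.0 rpm in PND0. That median was -0.09 without PND2N replicate 2, which had the lowest miR-20a level of the PND2N libraries, at 667 rpm. The miR-15/16 family, a brake on the cell cycle, gave 0 rows above and 4 below 0 (median -0.34), with miR-15b at 253 ± 74.6 rpm in PND2N and 354 ± 47.6 rpm in PND0. With libraries centred on their median, 4 rows of let-7 lay above and 7 below 0, and 2 rows of the miR-15/16 family lay above and 2 below. On that scale 3 rows of the miR-17 list lay above and 12 below 0. In the 4 libraries over 1000000 reads 2 rows of that list lay above and 13 below (median -0.11, with -0.07 for all rows). The medians without PND2N replicate 2 were -0.20 for let-7 and -0.24 for miR-15/16, where that of all rows was -0.10.

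Of the remaining lists, the HOX cluster miRNAs had 4 rows above and 5 below 0 (median -0.30), led by miR-10b at 53212 ± 10711 rpm in PND2N and 45573 ± 10759 rpm in PND0. The miR-29 family, which targets collagens, had 0 rows above and 4 below 0 (median -0.17). The miR-30 family had 2 rows above and 9 below 0 (median -0.08). The imprinted DLK1-DIO3 cluster had 2 rows above and 3 below 0 (median -0.11), and the growth and metabolism list had 2 above and 4 below 0 (median -0.29). Without PND2N replicate 2 the growth and metabolism list turned to 5 above and 1 below 0 (median 0.10), the miR-30 median turned to 0.01 and the HOX median was -0.14. The DLK1-DIO3 list without that library had 0 rows above and 5 below 0 (median -0.16). In the 4 libraries over 1000000 reads the medians were 0.05 for growth and metabolism, 0.01 for miR-30, -0.02 for HOX and 0.06 for DLK1-DIO3.

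miRNAs known to be abundant in mammalian milk were listed because PND2N gilts had suckled. Of their 14 rows, 5 lay above and 9 below 0 (median -0.10, -0.03 without PND2N replicate 2), and their summed share was 14.8% to 19.6% in PND2N and 15.6% to 19.7% in PND0. miR-148a-3p, the leading miRNA of milk in several mammals, averaged 34615 ± 9799 rpm in PND2N and 31171 ± 4960.3 rpm in PND0. In its seed family (miR-148a, miR-148b and miR-152), 3 rows lay above and 2 below 0 (median 0.04).

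**Figure D3:**
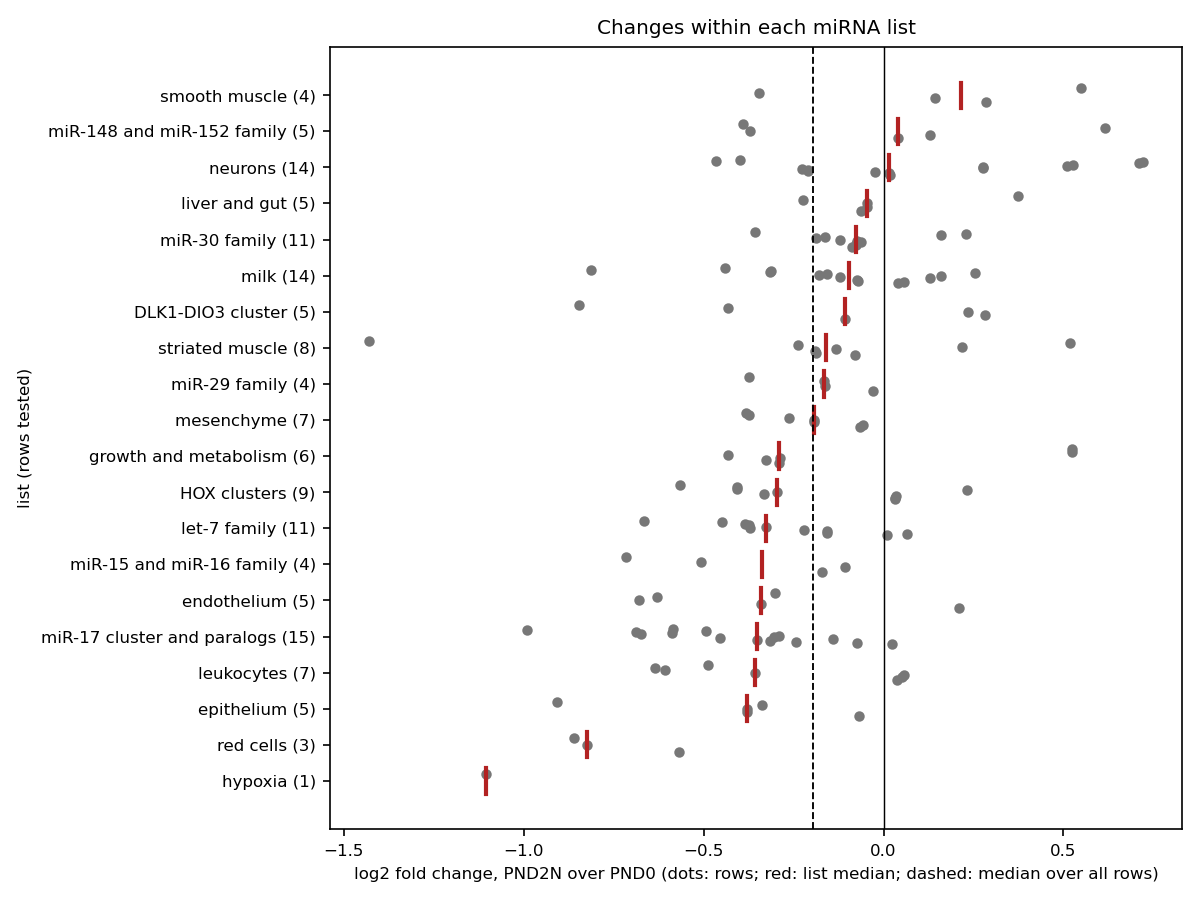
log2 fold change of PND2N over PND0 (x) for each tested row (dots) of the 20 miRNA lists (y, with the number of rows), with the list's median in red and the median of all 264 rows dashed. Smooth muscle has the highest median at 0.22, and the single hypoxia row (miR-210, -1.11) and the red cell list (-0.82) lie lowest.

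miRNAs whose genes lie next to each other are often cut from 1 transcript. In the RefSeq gene table of the Sscrofa11.1 assembly, used for neighbours only, 258 rows matched a gene, and 67 rows fell into 23 groups of genes within 10000 bp of each other. In 11 groups all rows lay below 0, in 0 all lay above, and in 12 both signs occurred. Of all 264 rows 201 lay below 0 on this scale (76.1%), and 45.5% did with median centring. The split of the groups is therefore not read as a result about neighbours. The closest pair was miR-144 and miR-451, at -0.86 and -0.82. Their log2 ratio within a library (miR-451 over miR-144) was 1.81 ± 0.12 in PND2N and 1.66 ± 0.25 in PND0 (SD, n = 4 each; exact permutation p = 0.343), while the level of each ranged over several fold among the PND2N libraries. In PND2N replicate 2 that ratio rests on 7 reads of miR-451 and 2 of miR-144, and in replicate 4 on 59 and 18. The small SD in PND2N is therefore uncertain.

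The widest range was that of miR-206 and miR-133b, at -1.43 ± 0.32 and 0.22 ± 0.29. miR-133b stood at 40.7, 26.7, 18.3 and 20.6 rpm in PND2N, against 21.5, 27.0, 14.2 and 21.3 rpm in PND0, with full overlap. miR-133b differs little in sequence from the more abundant miR-133a, so reads of the first can come from the second. The log2 ratio of miR-143-3p over miR-145-5p was 4.49 ± 1.32 in PND2N and 4.23 ± 0.76 in PND0 (exact permutation p = 0.743). In PND2N this ratio ran between 3.06 and 6.13, a spread far wider than that of miR-451 over miR-144, although these miRNAs too share a locus. The X-linked relatives miR-106a, miR-18b, miR-20b and miR-363 lay within 0.20 of each other, around a median of -0.63, with 0 reads of miR-106a, miR-18b and miR-20b in PND2N replicate 2. Without that library their changes were -0.21 (miR-106a), -0.51 (miR-18b), -0.24 (miR-20b) and -0.21 (miR-363).

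**Figure D4:**
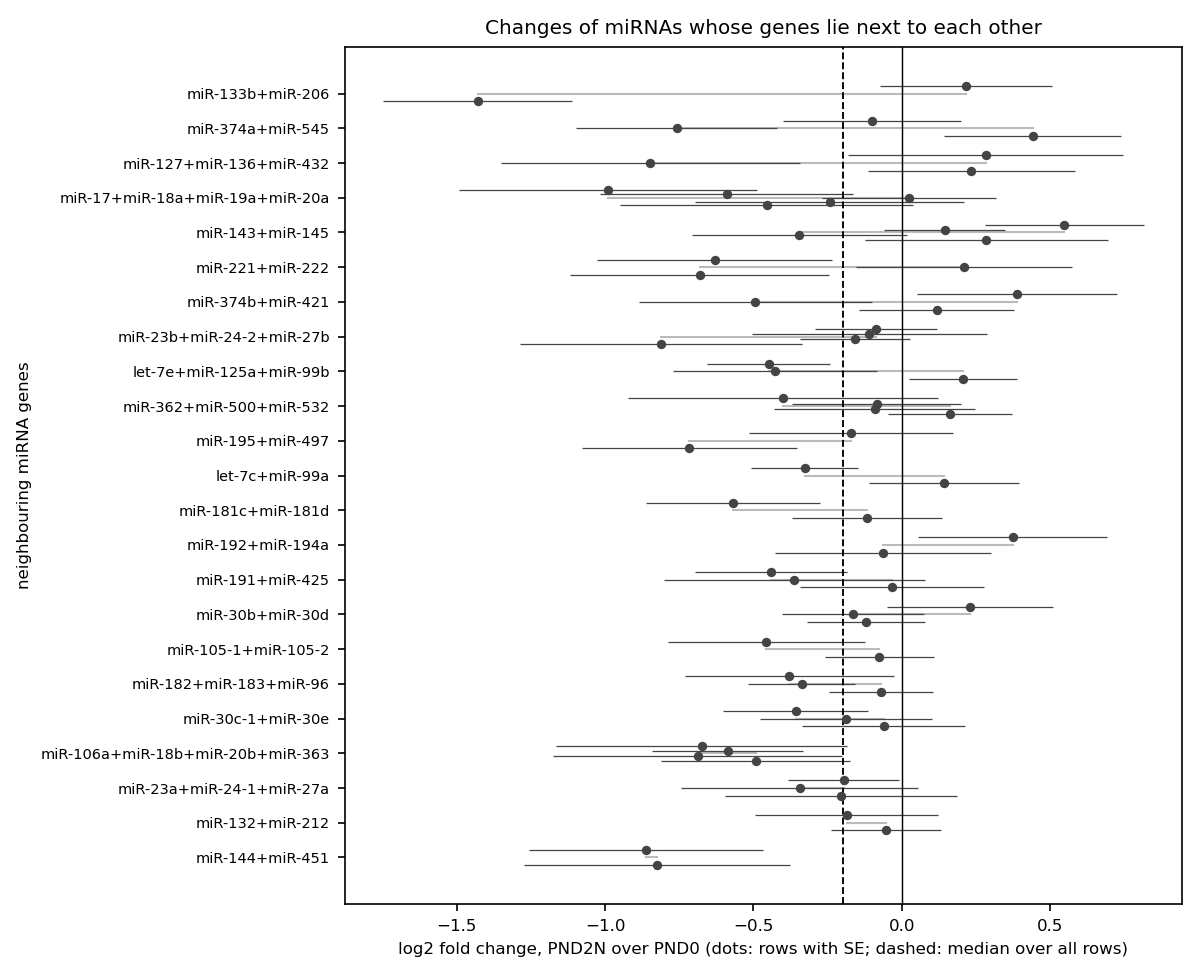
log2 fold change of PND2N over PND0 with its standard error (x) for rows grouped by neighbouring miRNA genes (y), sorted by the range within a group, with the median of all rows dashed. miR-133b and miR-206 span 1.65 on the log2 scale, and miR-144 and miR-451 span 0.04.

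The ratio of the 3p to the 5p arm of a hairpin does not depend on how a library is scaled. Among 21 hairpins with both arms above the floor in all 8 libraries, 0 passed after adjustment and 2 had an unadjusted exact permutation p under 0.05. The 70 splits allow no p below 0.0286, so an adjusted p under 0.05 would need many hairpins at that limit. The count of 0 was thus nearly fixed by the design. The ratio was higher in PND2N in 11 hairpins and lower in 10. For miR-148b the log2 ratio was 4.59, 2.39, 4.79 and 4.22 in PND2N, against 5.53, 5.07, 4.89 and 5.0 in PND0. The groups did not overlap (difference -1.12, exact permutation p = 0.0286, adjusted p = 0.300). The minor arm miR-148b-5p stood at 42.9, 107, 53.2 and 45.4 rpm in PND2N, against 28.0, 42.1, 40.5 and 29.3 rpm in PND0, and its highest value is 4 reads in PND2N replicate 2. Without that library the log2 fold change of miR-148b-5p was 0.36, with all 8 libraries 0.62. The difference in ratio without it was -0.59, and in the 4 libraries over 1000000 reads it was -0.28.

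For miR-455, encoded in the collagen gene COL27A1, the log2 ratio was -2.06, -4.04, -2.40 and -2.22 in PND2N, against -1.81, -1.88, -1.60 and -1.08 in PND0. These groups did not overlap either (difference -1.09, exact permutation p = 0.0286, adjusted p = 0.300), and PND2N replicate 2 had 2 reads of the 3p arm. The difference was -0.63 without that library and -0.49 in the 4 libraries over 1000000 reads. The next 3 hairpins were miR-10a (-0.70), miR-28 (0.38) and miR-374a (0.66), each with an exact permutation p of 0.0857 and an adjusted p of 0.360. In contrast the arms of miR-126 kept a log2 ratio of 4.46 ± 0.13 in PND2N and 4.41 ± 0.19 in PND0.

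**Figure D5:**
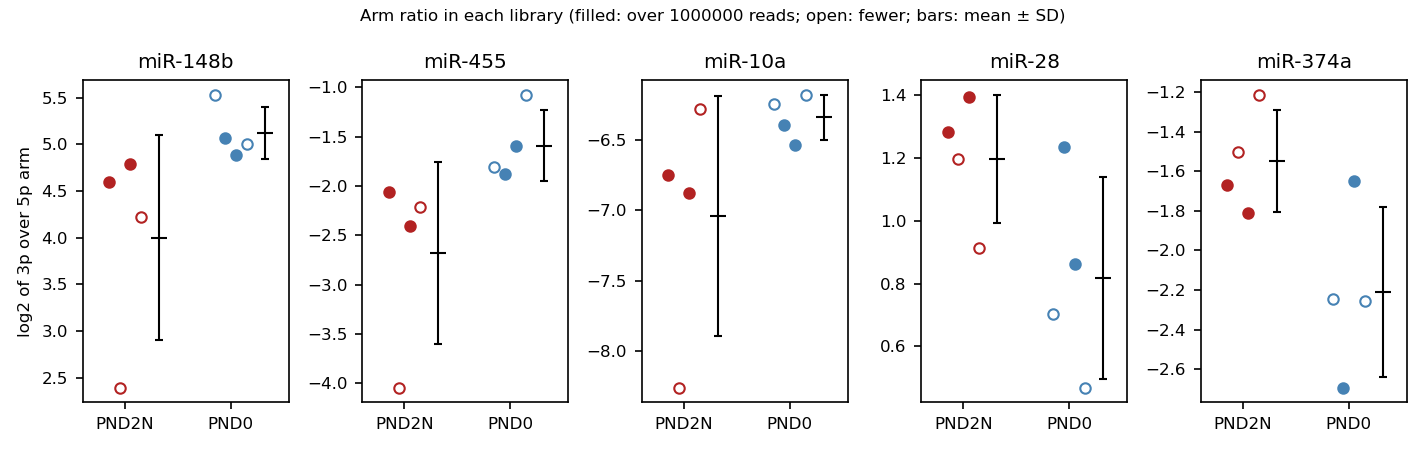
log2 ratio of the 3p over the 5p arm (y) in each PND2N and PND0 library for the 5 hairpins with the smallest exact permutation p; filled circles are libraries over 1000000 reads, open circles shallower ones, and bars give mean ± SD (n = 4). For miR-148b and miR-455 all PND2N libraries lie below all PND0 libraries, and PND2N replicate 2 lies lowest, at 2.39 and -4.04.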

How the data were processed

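Per the labels' protocols, 500 ng of total RNA per gilt entered a NEBNext small RNA kit and libraries were sequenced single-end to 50 bp. Sscrofa10.2 and FastQC are named in the submitters' processing notes, while aligner, counting and normalization are not given in the sources used here. In the deposited columns the authors gave a normalized signal with a floor of 1. From the values, each library is a multiple of 1 step: values up to 1000 reads were whole within 0.1 of a read (100%), and at least 95.9% of all values were. The floor hides up to 12 reads. Counting limits cover counting error only.

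Floor values were set to 0, each library was rescaled to rpm, and log2(rpm + 10) of rows above the floor in at least 4 of 8 libraries was fitted with limma 3.58.1 (trend, R 4.3.3), two-sided, with Benjamini-Hochberg adjustment and a threshold of 0.05. The limma script was tested on simulated data. Arm ratios and composition were tested by exact permutation (70 splits). Replicates are numbered in accession order. Members and lists were chosen with earlier results of these data known. The text names the 12 miRNAs of smallest p, the 10 most abundant rows, up to 4 members of each list with miR-210, miR-206 and miR-205, and 5 hairpins. miR-7, miR-378, miR-148b-5p, miR-126-5p, miR-183, miR-133b, miR-708-5p, miR-135 and some list members and neighbours were chosen after their values were seen. miR-545 was taken off the DLK1-DIO3 list afterwards, because the gene table puts it beside miR-374a. A count model planned as an alternative was not run, since the deposited values are a normalized signal and only part of the columns passed a test for whole reads. Coordinates and sequences are not given. Figures were drawn with matplotlib 3.10.9.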

Additional observations from a re-analysis of the deposited data

Results flagged for a closer look

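In 74 sets of 4 libraries (a miRNA, arm ratio or composition share in PND2N or PND0), 5 held a library far from the other 3, where chance gives about 1 in 20. In PND2N replicate 2, the shallowest library, let-7d-5p stood at 667 rpm while the other PND2N libraries held 1237 to 1265 rpm. In the same library miR-148b-5p stood at 107 rpm, on 4 reads, while the other PND2N libraries held 42.9 to 53.2 rpm. In PND2N replicate 1 miR-1 stood at 4253 rpm, above 2643 to 2824 rpm in the other PND2N libraries. In PND0 replicate 3 miR-27b-3p stood at 53261 rpm, below 76112 to 76658 rpm in the other PND0 libraries. In PND0 replicate 4 miR-148a-3p stood at 23734 rpm, below 33441 to 33774 rpm in the other PND0 libraries.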

How the results depend on the processing

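The count of 0 called rows was the same in every fit run except that with limma's library weights, which called 1 (miR-206, adjusted p = 0.0251). The 12 rows at an unadjusted p under 0.05 became 1 on the deposited values, 19 with rows above the floor in 1 library, 22 with all 12 libraries in the fit, 19 with library weights, 35 with depth class as a covariate and 4 in the libraries over 1000000 reads. Leaving out 1 library gave 6 (without PND2N replicate 4) to 23 (without PND2N replicate 3), with 7 without PND0 replicate 3 and 7 without PND0 replicate 4. The 10 rows whose groups do not overlap became 0 on the deposited values and 13 to 25 with 1 library left out, where fewer libraries make separation easier; without PND2N replicate 2 there were 13. The median log2 fold change was -0.50 on the deposited values, 0.01 under quantile normalization and 0.02 with median centring. A direction relative to 0 therefore depends on the scale. Median centring moved every row by the same amount and left its place among the rows unchanged. The share of rows below 0 was 76.1% as reported, 64.8% without PND2N replicate 2, 65.2% in the libraries over 1000000 reads and 45.5% with median centring.

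Of 30 named miRNAs, 22 kept their direction in all fits (up to 22 each). Adding the replacer-fed gilts, depth class as a covariate or another choice of rows leaves each fold change as it is. Direction was fixed in advance in those fits. The 12 miRNAs of smallest p were also picked from these same data, and others, such as miR-7 and miR-378, after their values were seen. A kept direction is weak support for any of these. Of the rows named for abundance alone, miR-143-3p and both rows of miR-199a-3p kept their direction, and the others turned. The direction turned for miR-99a on the deposited values (-0.23), under quantile normalization (-0.075), in the libraries over 1000000 reads (-0.013) and with 1 library left out (range -0.011 to 0.30). It turned on the deposited values for miR-10b (-0.14), miR-148a-3p (-0.24), miR-21 (-0.12), let-7i (-0.36), miR-133b (-0.025) and miR-145-5p (-0.086), and with median centring for miR-27b-3p (0.055). let-7i was -0.084 in the libraries under 1000000 reads. With 1 library left out, let-7i ranged from -0.14 to 0.17, miR-148a-3p from -0.052 (without PND2N replicate 3) to 0.22, and miR-145-5p from -0.064 (without PND2N replicate 1) to 0.63. miR-206 ranged from -3.24 (pseudocount 1 rpm) to -0.50 (50 rpm). The causes were not tested. Arm ratio calls stayed at 0, which the small number of splits nearly fixed in advance. The composition differences kept their sign, at 2.30 to 6.62 points for the 10 rows and 3.19 to 7.83 for the most abundant row with 1 library left out.

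No paired analysis was possible because the labels give no replicate numbers, so no PND2N gilt is tied to a PND0 gilt. Counting-error weights, median centring and 1 row per name were chosen after seeing the data, and the planned count model was not run. In PND2N replicate 2, at 37462 reads, a count of 0 allows up to 80.1 rpm, and with 4 gilts per group the median standard error was 0.30. In the libraries over 1000000 reads 0 rows were called (smallest adjusted p = 0.726 by limma). With 2 libraries in each group that fit had little power to call any row, so its count of 0 says little.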
